A study of Mus musculus with 10 samples.

Results

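The genes described here encode enzymes that shorten the poly(A) tail of mRNAs and proteins that bring these enzymes to their targets. They are the mRNA-binding proteins Zfp36, Zfp36l1 and Zfp36l2, the adaptor Btg4, the scaffold Cnot1 and the nucleases Cnot6, Cnot6l, Cnot7 and Cnot8 of the CCR4-NOT complex, and Pan2, the nuclease of the PAN2-PAN3 complex. These 10 genes were chosen by name, as probe sets whose platform annotation gives one of the symbols, with the brightest probe set over all samples taken for each gene. Of the 10 genes, 9 had a probe set of their own, 21 probe sets in all of the 45101 on the array, and all 9 were among the 10590 genes tested. Cnot1 is listed only together with a second gene on the same probe sets, so it is not analysed here. The brightest probe set of each of the 9 genes was above the filter level in all 10 samples, so none passed the filter through 1 group alone.

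The study measured mRNA on oligonucleotide arrays in fully grown mouse oocytes, arrested with an intact germinal vesicle, the large nucleus seen until meiosis resumes. There were 6 samples from mice with an RNAi transgene, which lowers basonuclin mRNA in oocytes only, and 4 samples from non-transgenic mice. Per the labels, each sample held RNA of about 50 oocytes taken from a single mouse. The promoter that drives the transgene, the strain and the age of the mice are not given in the sources used here. Since oocytes were pooled, fewer oocytes that hold an mRNA and less of it per oocyte cannot be told apart.

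Most mRNAs leave the cell's pool by a common route. The CCR4-NOT and PAN2-PAN3 complexes remove the poly(A) tail, after which the cap is removed and the body of the mRNA is degraded. Growing oocytes store mRNAs in a stable form, and their clearance begins when the oocyte resumes meiosis, with Btg4 and Cnot6l among the factors known to be needed for it in the mouse. Proteins of the Zfp36 family bind AU-rich stretches of mRNAs through paired CCCH zinc fingers and recruit CCR4-NOT, and Zfp36l2 is known to be needed in mouse oocytes for female fertility.

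Values are log2 of the deposited intensity, and differences are RNAi-transgenic minus non-transgenic. A gene was called where its adjusted p in limma, fitted over all 10590 tested genes, was below 0.05. The targeted gene Bnc1 was below the filter level of log2 5 in all RNAi-transgenic samples, the highest at 4.26, while the lowest non-transgenic sample was at 11.40, so it was at least 95.1-fold lower and each sample matched its label. Markers of oocytes were high in both groups, with all 14 of 14 above the filter. Figla and Dppa3 were lower, by 0.54 and 0.21 (limma adjusted p = 0.0153 and 0.0265), and 12 did not pass. The summed intensity of the 14 was 200860 to 245338 in RNAi-transgenic and 207318 to 224713 in non-transgenic samples. Over all tested genes the share called was 37.2%, with 18.9% higher and 18.3% lower in RNAi-transgenic oocytes, and the groups did not overlap for 28.0%.

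Of the 9 measured genes, Zfp36l2 rose, Pan2 fell and 7 did not pass the test. The share called, 22.2%, is to be read against the 37.2% of all tested genes. The median difference of the 9 genes was 0.04, beside -0.03 for all tested genes, and the median size of the difference was 0.16 beside 0.24. The results are therefore given gene by gene.

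Zfp36l2 mRNA was higher in RNAi-transgenic oocytes. Its log2 level had a lowest value of 8.23, a median of 8.43 and a highest of 8.78 in RNAi-transgenic samples, against 6.68, 6.18, 6.63 and 6.67 in non-transgenic replicates 1, 2, 7 and 8. Every RNAi-transgenic sample lay above every non-transgenic sample, and non-transgenic replicate 2 was the lowest of its group. As intensity the means were 354 ± 48.1 (SD, n = 6) in RNAi-transgenic and 93.9 ± 14.5 (SD, n = 4) in non-transgenic oocytes. The log2 difference was 1.92 with a 95% interval of 1.62 to 2.21, a 3.78-fold increase (limma adjusted p = 1.10e-06). An exact permutation test gave p = 0.00476, two-sided, the smallest that 6 against 4 samples allow. The difference was larger in size than that of 96.9% of tested genes. It was 2.16 among the samples numbered 1 to 6 and 1.68 among those numbered 7 to 13, with no overlap in either. Both other probe sets of Zfp36l2 were below the filter level in every sample, with means of 2.05 and 1.35 in RNAi-transgenic and 2.05 and 1.36 in non-transgenic oocytes, so the increase rests on 1 probe set.

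Neither paralog passed the test, and differences between the paralogs were not tested. Zfp36, also called tristetraprolin and the founding member of the family, was at 6.21, 6.51 and 6.79 (lowest, median, highest) in RNAi-transgenic samples, against 6.79, 6.60, 6.54 and 6.66 in non-transgenic replicates 1, 2, 7 and 8. The 3 lowest RNAi-transgenic samples lay below every non-transgenic sample, and the other 3 lay at the level of that group. The log2 difference was -0.16 (95% interval -0.42 to 0.09, limma adjusted p = 0.309). Zfp36l1, which acts on AU-rich mRNAs in many tissues, was at 6.45, 6.65 and 6.83 in RNAi-transgenic samples, against 6.27, 6.45, 6.44 and 6.49 in non-transgenic replicates 1, 2, 7 and 8. Most RNAi-transgenic samples lay above the non-transgenic ones, and the groups touched at their edges. The difference of 0.23 (95% interval 0.02 to 0.44) did not pass (limma adjusted p = 0.0872, unadjusted p = 0.0376). Neither interval of a paralog reaches the lower bound of the Zfp36l2 interval.

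Btg4 binds both the CAF1-type nucleases and the cap-binding machinery, and is made into protein mainly once meiosis resumes. Its single probe set was bright in both groups, at 14.80, 14.90 and 15.08 (lowest, median, highest) in RNAi-transgenic samples, against 15.07, 14.82, 14.92 and 15.03 in non-transgenic replicates 1, 2, 7 and 8. The groups lay over each other. The difference was -0.05 with a 95% interval of -0.19 to 0.09 (limma adjusted p = 0.579).

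**Figure D1:**
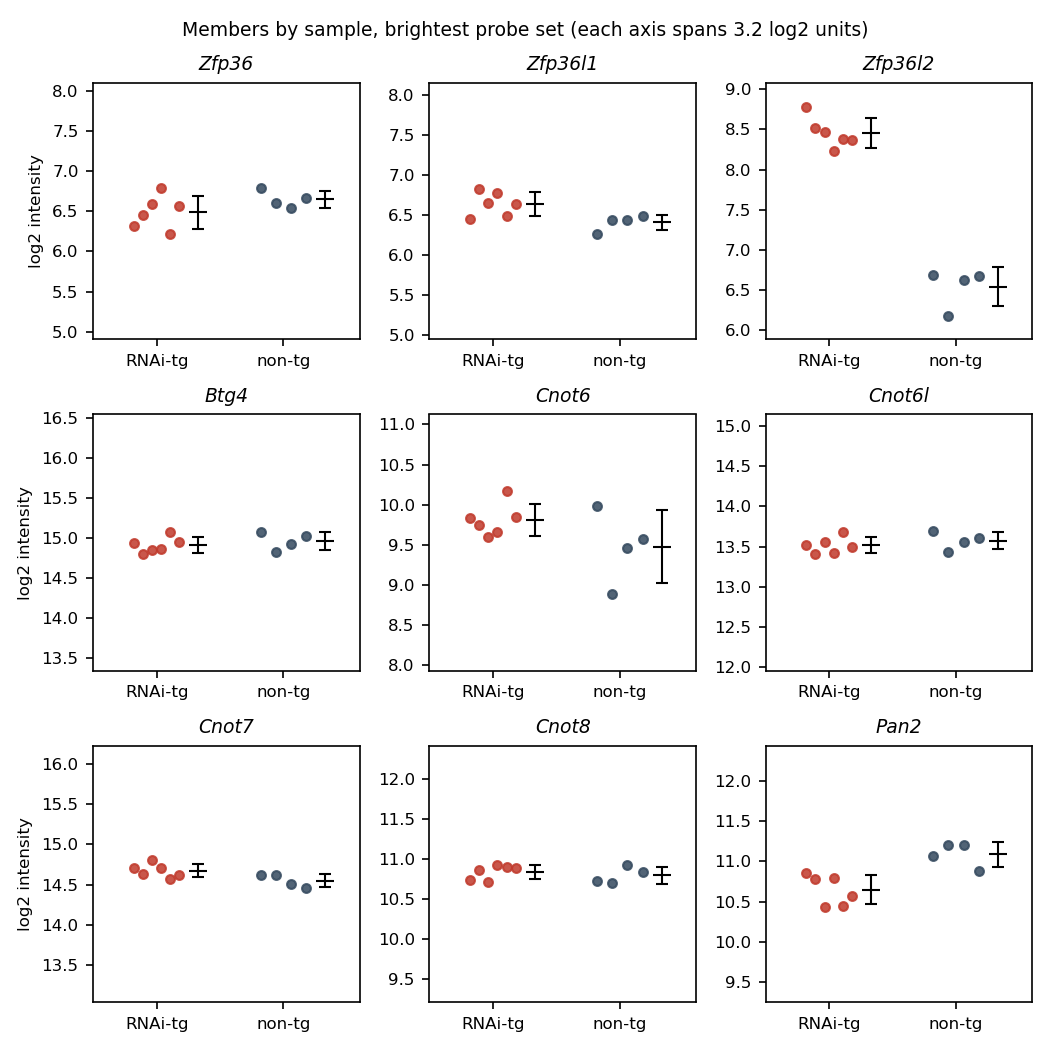
Log2 intensity (vertical axis) of the brightest probe set of each of the 9 measured genes, with 1 point for each sample, RNAi-transgenic (RNAi-tg, n = 6) left of non-transgenic (non-tg, n = 4), and bars for the mean and SD. Each axis covers the same range of log2 units, so distances can be compared between panels. Zfp36l2 and Pan2 are the 2 of 9 genes whose groups do not overlap, beside 28.0% of all tested genes.

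Among the nucleases, the CCR4-type enzymes Cnot6 and Cnot6l and the CAF1-type enzymes Cnot7 and Cnot8 are pairs of close relatives, of which a CCR4-NOT complex holds 1 of each type. Cnot6l was at 13.40, 13.51 and 13.68 (lowest, median, highest) in RNAi-transgenic samples, against 13.69, 13.43, 13.56 and 13.60 in non-transgenic replicates 1, 2, 7 and 8, with a difference of -0.06 (95% interval -0.20 to 0.08, limma adjusted p = 0.518). Cnot8 was at 10.72, 10.88 and 10.93 in RNAi-transgenic samples, against 10.72, 10.70, 10.93 and 10.84 in non-transgenic replicates 1, 2, 7 and 8, with a difference of 0.04 (95% interval -0.12 to 0.20, limma adjusted p = 0.695). In both genes the groups covered nearly the same range. Cnot7 was at 14.57, 14.67 and 14.80 in RNAi-transgenic samples, against 14.62, 14.62, 14.51 and 14.45 in non-transgenic replicates 1, 2, 7 and 8. Its difference of 0.12 (95% interval 0.01 to 0.24) did not pass (limma adjusted p = 0.0950). It passed after median centring (0.16, adjusted p = 0.0249) and with the range of the replicate numbers as a covariate (adjusted p = 0.0499), and was 0.09 after quantile normalization (adjusted p = 0.213). The suffix of this probe set marks, in the array maker's naming, one that can bind mRNA of more than 1 gene, and both other tested probe sets of Cnot7 gave 0.08 and -0.09 (adjusted p over all probe sets 0.603 and 0.675).

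The call of Cnot6 differed between its probe sets. On the brightest one it was at 9.59, 9.79 and 10.17 (lowest, median, highest) in RNAi-transgenic samples, against 9.98, 8.88, 9.46 and 9.57 in non-transgenic replicates 1, 2, 7 and 8, a wide spread in the non-transgenic group. The difference of 0.33 (95% interval -0.08 to 0.74) did not pass (limma adjusted p = 0.189). Without non-transgenic replicate 1 it was 0.50 and passed (adjusted p = 0.0411), and without replicate 2 it was 0.13 (adjusted p = 0.538). A second probe set was at 9.67 ± 0.17 (SD, n = 6) in RNAi-transgenic and 9.05 ± 0.08 (SD, n = 4) in non-transgenic oocytes, with no overlap between the groups. Its difference was 0.62 (95% interval 0.40 to 0.83), and it passed when each probe set was fitted by itself (limma adjusted p = 0.000671). Another was at 8.52 ± 0.20 and 8.12 ± 0.23 in RNAi-transgenic and non-transgenic oocytes, with a difference of 0.40 (adjusted p = 0.0436), and the last was below the filter level in 8 of 10 samples. All 3 tested probe sets thus pointed up, and their mean gave 0.45 (adjusted p = 0.000586).

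Over all 17 tested probe sets of the 9 genes, 3 rose and 1 fell in the fit of each probe set by itself, where 33.2% of all 18582 tested probe sets were called, 17.0% higher and 16.2% lower. Groups did not overlap for 4 of the 17, beside 25.4% of all tested probe sets. Differences in call between probe sets of a gene were common on this array. Of 4036 genes with more than 1 tested probe set, 33.5% had some but not all called, and 1.44% had probe sets called in opposite directions. Cnot6l had 4 tested probe sets. Of these, the dimmest gave -0.45 with no overlap between the groups (6.17 ± 0.31 in RNAi-transgenic and 6.62 ± 0.17 in non-transgenic oocytes, adjusted p = 0.0523), and the remaining pair gave 0.04 and 0.02 (adjusted p = 0.750 and 0.908).

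**Figure D2:**
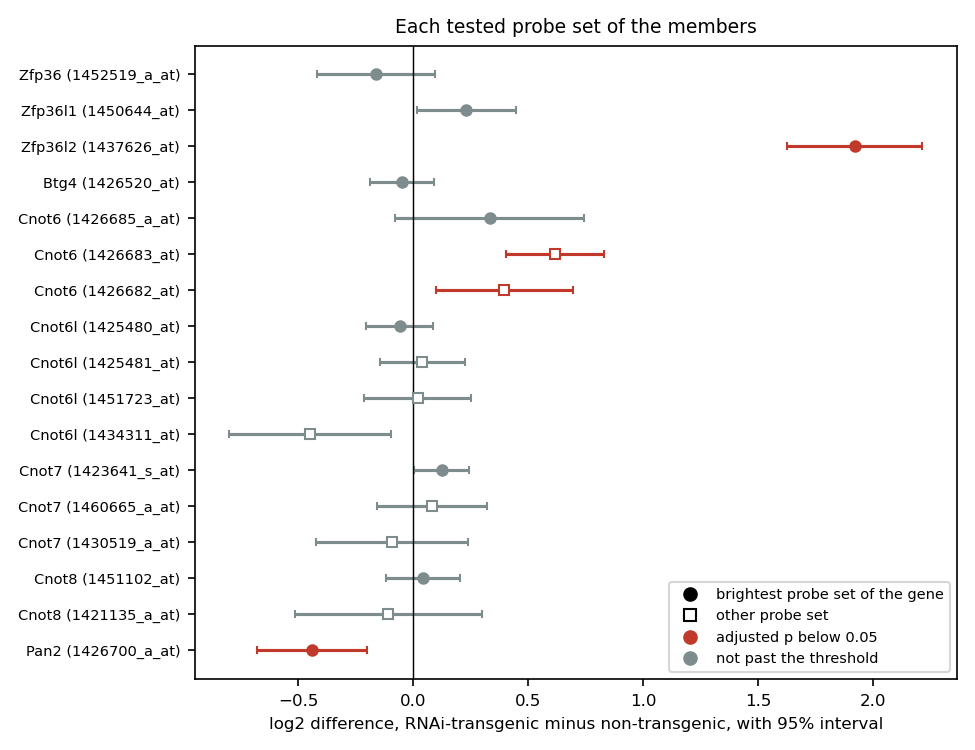
Log2 difference (horizontal axis, RNAi-transgenic minus non-transgenic) with its 95% interval for each of the 17 tested probe sets, named by gene and array identifier; filled circles are the brightest probe set of a gene, open squares the others, and red marks an adjusted p below 0.05 over all 18582 tested probe sets. Zfp36l2 lies far to the right, Pan2 to the left, and the points of the 3 Cnot6 probe sets lie right of 0, with an interval that crosses 0 for the brightest.

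Pan2 trims long poly(A) tails before CCR4-NOT acts. It was at 10.44, 10.68 and 10.85 (lowest, median, highest) in RNAi-transgenic samples, against 11.06, 11.21, 11.20 and 10.88 in non-transgenic replicates 1, 2, 7 and 8. The groups did not overlap, although the highest RNAi-transgenic sample came close to the lowest non-transgenic one, replicate 8. The difference was -0.44 (95% interval -0.68 to -0.20), which is 1.36-fold lower (limma adjusted p = 0.00821, exact permutation p = 0.00476). It was -0.45 among samples 1 to 6 and -0.44 among samples 7 to 13, with no overlap in either, although neither subset passed on its own (limma adjusted p = 0.111 and 0.0956). Its partner Pan3, the subunit that binds mRNA and the poly(A)-binding protein, gave -0.15 and did not pass (limma adjusted p = 0.121).

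The remaining genes of mRNA decay were followed by lists of known factors. Of 78 listed factors, 65 were tested, of which 10 rose and 17 fell, 41.5% beside the 37.2% of all tested genes. Among the 6 other CCR4-NOT subunits, Cnot10 fell by 0.43 (limma adjusted p = 0.00327) and Cnot9 by 0.39 (adjusted p = 0.0427), and 4 did not pass. Both other tested probe sets of Cnot10 gave -0.21 and -0.22 and did not pass (adjusted p over all probe sets 0.0733 and 0.127). The 2 that fell are 33.3% of the 6, beside 18.3% of all tested genes that were lower. The median of the 6 was -0.21, beside -0.03 for all tested genes. All 6 had values below 0, and the share of all tested genes below 0 was not counted. Cnot9 was past the threshold by a small margin. It lost its call when any 1 of RNAi-transgenic replicates 4, 5, 11, 12 and 13 or of non-transgenic replicates 1, 7 and 8 was left out (adjusted p from 0.0583 to 0.118). The call was also lost with the difference between the 3′ and 5′ probe sets of Gapdh, a measure of RNA length, as a covariate (-0.20, adjusted p = 0.328), with median centring (adjusted p = 0.0739), with no filter (adjusted p = 0.0670), with the number range as a covariate (adjusted p = 0.0516) and in samples 1 to 6 (adjusted p = 0.418).

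The BTG and TOB proteins bind the CAF1-type nucleases, and TOB proteins also bind the poly(A)-binding protein, which brings CCR4-NOT to the tail. All 4 tested members, Btg1, Btg2, Tob1 and Tob2, rose in RNAi-transgenic oocytes, where 18.9% of all tested genes did, and Btg3, also on the list, had no probe set of its own. Btg2, an early response gene that p53 can induce, was at 8.85, 9.13 and 9.48 (lowest, median, highest) in RNAi-transgenic samples, against 6.99, 7.10, 7.20 and 6.97 in non-transgenic replicates 1, 2, 7 and 8. The groups were far apart, and the difference was 2.07 (95% interval 1.81 to 2.34), 4.21-fold higher (limma adjusted p = 2.89e-07). Its other probe set gave 1.26, with groups that overlapped (adjusted p over all probe sets 0.00589).

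Btg1, a relative known for slowing cell division, was at 11.54, 11.71 and 11.87 in RNAi-transgenic samples, against 10.99, 11.39, 10.91 and 11.07 in non-transgenic replicates 1, 2, 7 and 8, a difference of 0.63 (limma adjusted p = 0.000545). Tob1 was at 10.18, 10.33 and 10.43 in RNAi-transgenic samples, against 9.29, 10.07, 9.57 and 10.05 in non-transgenic replicates 1, 2, 7 and 8, a difference of 0.58 (limma adjusted p = 0.00921). Tob2 was at 12.57, 12.73 and 12.96 in RNAi-transgenic samples, against 12.45, 12.52, 12.19 and 12.52 in non-transgenic replicates 1, 2, 7 and 8, a difference of 0.34 (limma adjusted p = 0.0142). A second probe set of Btg1 gave 0.86, and the 4 other tested probe sets of Tob2 gave 0.54, 0.38, 0.30 and 0.01, of which the last pair did not pass (adjusted p over all probe sets 0.0737 and 0.931). On the brightest probe set of each of these genes every RNAi-transgenic sample lay above every non-transgenic one, by small margins in Tob1 and Tob2. Groups did not overlap for 28.0% of all tested genes. The groups overlapped on the Tob2 probe sets that gave 0.38, 0.30 and 0.01. Tob1 and Tob2 lost their calls with the same Gapdh covariate (adjusted p = 0.0541 and 0.0663). The 3′ minus 5′ log2 difference of Gapdh was 3.63 to 4.12 in RNAi-transgenic and 3.72 to 4.34 in non-transgenic samples (exact permutation p = 0.114). That of actin, not used as a covariate, was 3.40 to 5.13 and 3.44 to 4.01 (exact permutation p = 0.714). The RNAi-transgenic mean was lower for Gapdh (3.77 beside 4.05) and higher for actin (3.94 beside 3.74). The part of RNA length in these results was not tested further.

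**Figure D3:**
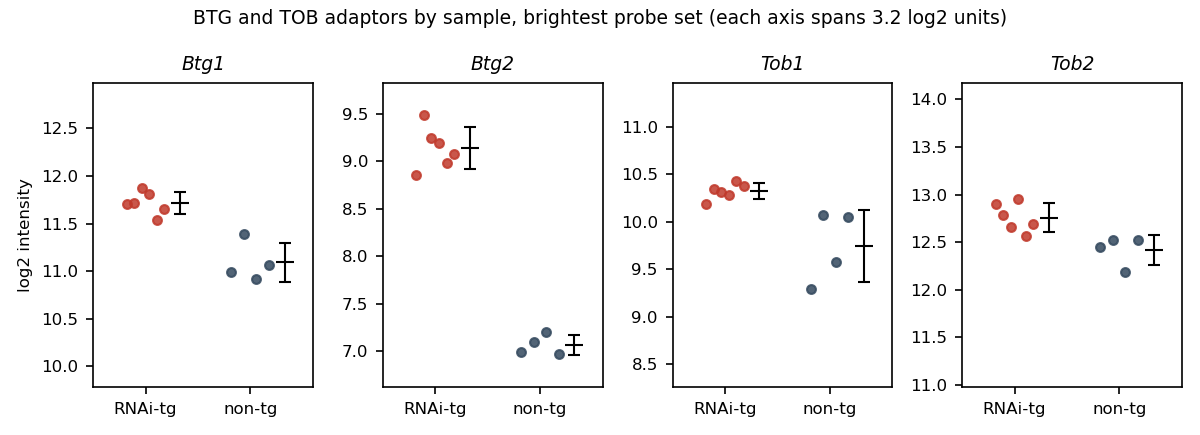
Log2 intensity (vertical axis) of the brightest probe set of Btg1, Btg2, Tob1 and Tob2, with 1 point for each sample, RNAi-transgenic (RNAi-tg, n = 6) left of non-transgenic (non-tg, n = 4), and bars for the mean and SD. In each of the 4 panels all RNAi-transgenic points lie above all non-transgenic points, with the widest gap in Btg2. Groups did not overlap for 28.0% of all tested genes.

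The start-site windows of these 4 adaptors, which rose together, and of Pan2, the nuclease gene that fell, are printed to show the sequence around their promoters. They are RefSeq sequence of build GRCm38.p6 from 250 bases before to 50 bases after the annotated start, 5′ to 3′ on the strand of the gene. Capitals mark TGACG or its complement CGTCA, the core of the cyclic AMP response element. The Btg1 window is chr10:96616751-96617050, plus strand, the Btg2 window chr1:134079106-134079405, minus strand, the Tob1 window chr11:94211204-94211503, plus strand, the Tob2 window chr15:81858277-81858576, minus strand and the Pan2 window chr10:128303085-128303384, plus strand.
Btg1: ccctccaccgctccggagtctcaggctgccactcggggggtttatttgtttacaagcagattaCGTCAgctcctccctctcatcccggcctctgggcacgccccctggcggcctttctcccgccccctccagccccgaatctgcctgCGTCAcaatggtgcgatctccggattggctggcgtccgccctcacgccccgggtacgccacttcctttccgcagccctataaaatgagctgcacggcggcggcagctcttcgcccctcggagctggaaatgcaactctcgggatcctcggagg
Btg2: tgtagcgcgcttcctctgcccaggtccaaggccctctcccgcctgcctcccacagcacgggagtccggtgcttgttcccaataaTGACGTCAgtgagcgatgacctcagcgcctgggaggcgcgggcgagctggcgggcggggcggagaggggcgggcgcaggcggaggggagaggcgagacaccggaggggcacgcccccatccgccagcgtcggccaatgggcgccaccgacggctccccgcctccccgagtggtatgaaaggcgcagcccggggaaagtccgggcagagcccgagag
Tob1: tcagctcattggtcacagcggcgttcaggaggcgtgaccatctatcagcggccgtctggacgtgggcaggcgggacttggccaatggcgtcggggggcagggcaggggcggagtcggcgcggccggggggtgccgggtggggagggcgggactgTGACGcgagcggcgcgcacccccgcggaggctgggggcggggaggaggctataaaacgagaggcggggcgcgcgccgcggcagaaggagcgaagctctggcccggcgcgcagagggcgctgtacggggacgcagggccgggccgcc
Tob2: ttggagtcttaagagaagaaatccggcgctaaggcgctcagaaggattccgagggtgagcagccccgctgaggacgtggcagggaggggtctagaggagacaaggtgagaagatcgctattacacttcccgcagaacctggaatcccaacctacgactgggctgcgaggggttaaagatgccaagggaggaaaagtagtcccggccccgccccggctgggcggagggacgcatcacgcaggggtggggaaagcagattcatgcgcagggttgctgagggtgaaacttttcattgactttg
Pan2: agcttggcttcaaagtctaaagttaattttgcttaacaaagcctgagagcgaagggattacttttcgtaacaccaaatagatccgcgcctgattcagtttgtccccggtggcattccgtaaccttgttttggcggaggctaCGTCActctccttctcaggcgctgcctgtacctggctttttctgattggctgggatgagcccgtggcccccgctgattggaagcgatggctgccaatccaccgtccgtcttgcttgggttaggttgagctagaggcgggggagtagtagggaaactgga
Searched on both strands, TGACG was found at 2 places in Btg1, at 2 overlapping places in Btg2, where they form the full palindrome TGACGTCA, and at 1 place each in Tob1 and Pan2, with no match in Tob2. Of all 32851 start-site windows of this length, 20.8% held TGACG and 1.79% held TGACGTCA. TATAAA was found in Btg1 and Tob1, beside 13.6% of all windows, and CCAAT in all of the printed windows other than that of Tob2, beside 37.4%. Of the 10 genes chosen by name, 7 had a window in the table, and Zfp36l2, Cnot1 and Cnot7 were not listed. Of the 7 with a window, 2 held TGACG, Pan2 and Cnot6, beside the 20.8% of all windows. The printed windows are those of genes that changed, and a link between matches and changes was not tested. These matches describe letters and not binding.

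Genes listed as other deadenylases moved in both directions, with 3 of 8 higher and 2 lower (37.5% and 25%, beside 18.9% and 18.3% of all tested genes). Whether each of their enzymes removes poly(A) tails was not tested. Toe1, a nuclear enzyme that trims the ends of small RNAs, was at 5.91, 6.28 and 6.49 (lowest, median, highest) in RNAi-transgenic samples, against 7.17, 8.03, 6.92 and 7.24 in non-transgenic replicates 1, 2, 7 and 8. It fell by 1.07, 2.11-fold (limma adjusted p = 0.00144). Pnldc1, which trims the ends of PIWI-interacting RNAs in the mouse germline, fell by 0.50 (adjusted p = 0.00541). Pde12, a mitochondrial enzyme that removes poly(A), rose by 0.60 (adjusted p = 0.00205) and Angel2 by 0.34 (adjusted p = 0.000185), and Angel1, named outside the rule because it completes the count, by 0.46 (adjusted p = 0.00286). Noct, the circadian nocturnin, had a difference of 0.23 and Parn of -0.13, and neither passed (adjusted p = 0.302 and 0.271).

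Of 13 tested genes of decapping and decay from the cap end, 3 fell and 10 did not pass, 23.1% called beside 37.2% of all tested genes. Those that fell were Lsm6, a subunit of the ring that binds shortened tails, by 0.39 (limma adjusted p = 0.000962), the decapping scaffold gene Edc4 by 0.29 (adjusted p = 0.00208) and, named after its value was seen, the decapping enzyme gene Dcp2 by 1.34 (adjusted p = 0.0164). Dcp2 was spread over 5.93 to 7.90 in RNAi-transgenic samples, against 7.96 to 8.59 in non-transgenic samples. Of 13 genes of the exosome, which degrades RNA from the tail end, and its SKI cofactors, 5 fell and 1 rose, beside 18.3% and 18.9% of all tested genes. The nuclease gene Exosc10 fell by 0.52 (adjusted p = 0.0176) and the core subunit gene Exosc9 by 0.49 (adjusted p = 0.0123). Exosc8 rose by 0.23 on its brightest probe set (adjusted p = 0.0164) but was at -1.85 on its other one (adjusted p over all probe sets 0.000303), so its direction is not settled.

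Of 7 tested genes of nonsense-mediated decay, which removes mRNAs with early stop codons, 4 fell, beside 18.3% of all tested genes, and 3 did not pass. Upf2, which links the exon junction to the helicase Upf1, was at 10.33, 10.54 and 10.65 (lowest, median, highest) in RNAi-transgenic samples, against 11.17, 11.53, 11.35 and 11.09 in non-transgenic replicates 1, 2, 7 and 8. It fell by 0.78 (limma adjusted p = 0.000131), and the endonuclease gene Smg6 fell by 0.58 (adjusted p = 0.00402). The other tested probe set of Smg6 gave -0.39 and did not pass (adjusted p over all probe sets 0.0665). Among 12 tested RNA-binding proteins that recruit the deadenylases, 2 rose and 1 fell, 25% called beside 37.2% of all tested genes. Tnrc6a and Tnrc6b, which link Argonaute proteins to CCR4-NOT and PAN2-PAN3, rose by 0.68 and 0.65 (adjusted p = 0.00118 and 0.000327), and Rc3h1, which binds stem-loops of mRNAs, fell by 0.48 (adjusted p = 0.00380). A second probe set of Tnrc6b gave -0.05 (adjusted p over all probe sets 0.839). Both tested uridylation enzyme genes, Tut4 and Tut7, had values of -0.05 and 0.34 and did not pass (adjusted p = 0.695 and 0.151).

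**Figure D4:**
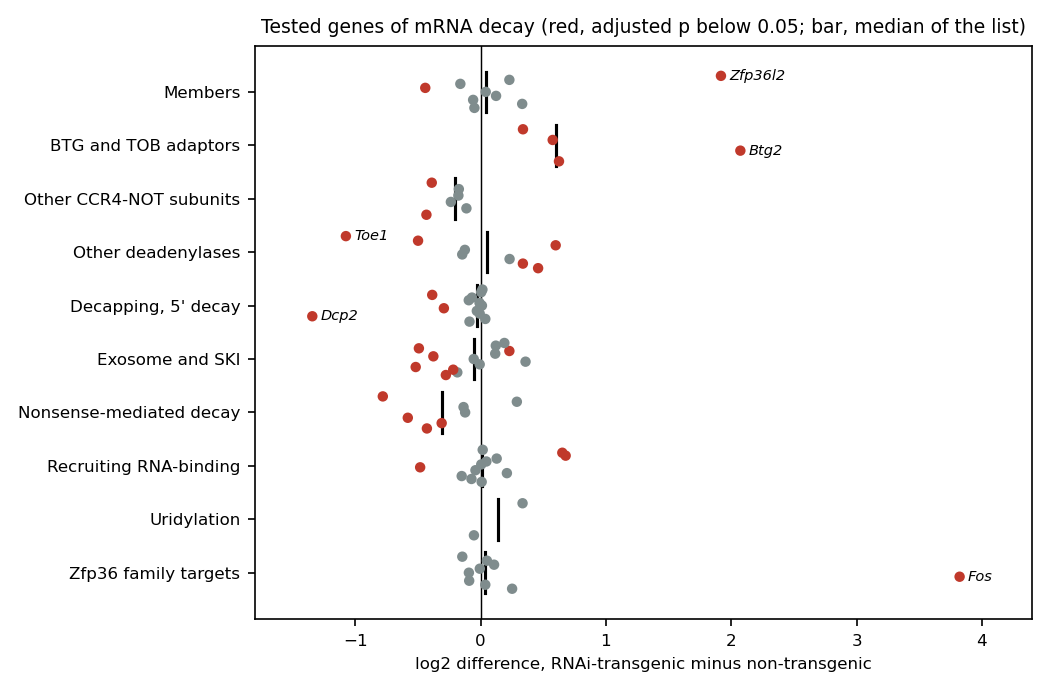
Log2 difference (horizontal axis, RNAi-transgenic minus non-transgenic) of each tested gene, with rows for the 9 measured genes (Members) and for 9 other lists, of which 8 hold decay factors and the last, at the bottom, mRNA targets of the Zfp36 family; red marks a limma adjusted p below 0.05 over all tested genes, and black bars are the median of each row. The 4 BTG and TOB genes are all red and right of 0, and the called genes of nonsense-mediated decay and of decapping lie left of 0.

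Known mRNA targets of the Zfp36 family were listed from work in other cells. Of 19, 9 passed the filter, 1 rose and 8 did not pass, 11.1% called beside 37.2% of all tested genes. Their median was 0.04, beside -0.03 for all tested genes. The gene that rose was Fos, a subunit of the AP-1 transcription factor and, like Btg2, an early response gene. It was at 8.21, 8.59 and 9.23 (lowest, median, highest) in RNAi-transgenic samples, against 6.18, 4.89, 4.20 and 4.05 in non-transgenic replicates 1, 2, 7 and 8, where only replicate 1 was above the filter level. With values under that level set to it, the increase was at least 10.2-fold. The fit on the values as deposited gave a log2 difference of 3.82 (limma adjusted p = 1.53e-05), but Fos passed the filter through the RNAi-transgenic samples and so had to differ. Among targets that did not pass, Hif1a had a difference of -0.09 and Bcl2 of 0.25 (adjusted p = 0.393 and 0.0609). Group means of Tnf, Il2, Cxcl1, Cdkn1a and Plk3 lay between 4.99 and 5.77, near the filter level, where small differences are uncertain.

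The tested genes whose pattern over the 10 samples was most like that of Zfp36l2 were Cenpt, a kinetochore protein gene, Mreg, which encodes melanoregulin, and P2rx4, an ATP-gated ion channel gene. After each gene was centred on its own mean, their log2 values differed from those of Zfp36l2 by a root mean square of 0.186, 0.188 and 0.194. Their log2 differences between the groups were 1.89, 2.11 and 1.93. Since these genes were picked for closeness to Zfp36l2, their differences had to lie near its own, and shared regulation was not tested.

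Zfp36 family, BTG and early response genes are also active in the somatic cells around the oocyte, so markers of these cells are given beside the results above. Of 16 markers of granulosa and cumulus cells, 8 passed the filter, and 2 of these rose, Fshr by 1.24 (2.36-fold) and Cyp11a1 by 1.57 (2.97-fold). That share, 25%, is to be read against the 18.9% of all tested genes that were higher. Inha and Hsd17b1 had differences of 0.59 and 0.33 and did not pass (limma adjusted p = 0.0869 and 0.0618). The summed intensity over the 15 measured markers was 1732 to 2840 in RNAi-transgenic and 1790 to 2006 in non-transgenic samples. The brightest markers weigh most in such a sum, so it says little about dim ones such as Fshr and Cyp11a1. Amh, Amhr2, Has2, Hsd3b1, Inhba and Star were below the filter level in all 10 samples. The most abundant, Nr5a2, Gja1 and Gata4, averaged 9.87, 8.56 and 7.61 in RNAi-transgenic and 9.94, 8.01 and 7.98 in non-transgenic oocytes, and none passed (limma adjusted p = 0.669, 0.242 and 0.134). Of 10 markers of stroma and vessels, 5 passed the filter, of which Kdr rose by 1.19, Dcn by 1.11 and Postn by 0.81, and Acta2 fell by 0.50. These are 60% higher and 20% lower, beside 18.9% and 18.3% of all tested genes. The sum over all 10 markers was 581 to 764 in RNAi-transgenic and 501 to 600 in non-transgenic samples, with no test made of the sum. Cdh5, Col1a2, Col3a1 and Pecam1 were below the filter level in all samples. Of 8 blood and immune markers, only 2 passed the filter. Laptm5 rose by 1.06 and Srgn fell by 0.56, which is 50% each way beside the same 18.9% and 18.3%. Cd14, Cd68, Hba-a1, Lyz2 and Ptprc were below the filter level in all samples. The part of such cells in the changes of Zfp36l2, Btg2 and Fos was not tested.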

How the data were processed

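For each of the 10 arrays the authors deposited a linear intensity per probe set. GCRMA is the tool named in the submitters' processing notes, without a version. It removes background estimated from probe sequence, brings arrays to a common distribution and combines the probes of a set. No detection call came with the values, and dim probe sets are drawn toward a common floor, so their small differences are uncertain. Median intensity per array was 17.5 to 20.1, and the number of arrays limits the precision.

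No new normalization was applied before taking log2 of the deposited intensity. By the platform annotation 34945 probe sets had 1 gene and 932 had several, and 34741 matched RefSeq (GRCm38.p6) by gene number, which updated their symbols. Probe sets entered the test with a log2 value over 5 (intensity 32) on 4 or more arrays. The brightest stood for its gene, which left 10590 genes. The groups were compared in limma 3.58.1 under R 4.3.3, using lmFit and a trended eBayes, with Benjamini-Hochberg adjustment over all tested genes and a threshold of 0.05. The procedure was tested on simulated data. Single values were also compared by an exact permutation test. Figures were drawn with matplotlib 3.10.9. Alternatives covered normalization, filter, probe set choice, moderation, threshold, covariates, subsets and leaving out each sample.

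The genes and the lists were chosen with earlier results of these data known. Named are the 10 genes, Bnc1, up to 2 higher and 2 lower genes per list by adjusted p, the 3 most abundant granulosa markers and the 3 genes nearest in pattern to the member with the lowest adjusted p; others were named after their values were seen, to complete a count. No label calls the replicate numbers a batch; their range (1 to 6, 7 to 13) served as a covariate and as subsets.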

Additional observations from a re-analysis of the deposited data

Results flagged for a closer look

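Among 62 sets of replicates (31 named genes in both groups), 3 samples stood further from the rest of their group than Dixon's 95% criterion allows, which chance gives for about 1 in 20 sets. Non-transgenic replicate 2 was lowest for Zfp36l2, at log2 6.18 with the nearest other sample at 6.63, and without it the difference between the groups was 1.80 (limma adjusted p = 3.37e-06). Non-transgenic replicate 7 was highest for Pnldc1, at 8.27 with the nearest at 7.91. RNAi-transgenic replicate 6 was lowest for Exosc10, at 8.29 with the nearest at 8.83.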

How the results depend on the processing

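No paired analysis was possible because the groups share no replicate number. Zfp36l2 stayed higher and called in all 25 alternatives, with a difference of 1.68 to 2.16. Pan2 stayed lower in all 25 (-0.59 to -0.40) and lost its call in the samples numbered 1 to 6, in those numbered 7 to 13 and under a threshold of 1.5-fold, which left 0 of the measured genes called lower in each of the 3. The count called higher became 2 with the mean of probe sets (Cnot6), with median centring and the number range as a covariate (Cnot7), and without non-transgenic replicate 1 (Cnot6). Leaving out each sample gave 1 to 2 higher and 1 lower. The sign turned for Cnot6l with the Gapdh covariate (0.0053), and for Cnot8 (-0.034) and Exosc8 (-0.81) with the mean of probe sets. For Exosc8 and Cnot8 the probe sets oppose each other. Those of Cnot8 gave 0.04 on the brightest and -0.11 on the other, and neither passed (adjusted p over all probe sets 0.703 and 0.690). For Cnot6l the cause was not tested. The 4 BTG and TOB calls stayed at 4 with any sample left out, and became 2 with the Gapdh covariate, under 1.5-fold and in each number range. Of the 74 tested genes on the other lists, which are 65 decay factors and 9 Zfp36 family targets, 6 were higher and 3 lower under 1.5-fold, 7 and 4 in samples 1 to 6, 5 and 6 in samples 7 to 13, and 8 were lower at an adjusted p below 0.01; leaving out each sample gave 11 to 12 higher and 13 to 16 lower. Over all genes, 1231 were higher and 793 lower under 1.5-fold, 1207 and 706 in samples 1 to 6, 1241 and 1023 in samples 7 to 13, and 1102 lower at an adjusted p below 0.01; leaving out each sample gave 1778 to 1954 higher and 1564 to 1913 lower. The subsets hold fewer samples, and the stricter thresholds pass fewer genes by construction.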
